A study of Mus musculus with 12 samples.

Results

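This comparison takes the female mice of a study of fear extinction in the mouse hippocampus: 6 of its 12 RNA sequencing libraries, described across all genes. The libraries were chosen by their labels alone, 3 from females with a high extinction level and 3 from females with a low extinction level. The mice of both groups were wild-type C57BL6/J aged 18 weeks, with no treatment named in the labels, so the groups share strain, genotype, tissue and age and differ in the labelled extinction level. The mouse names begin with C in every high-extinction female and with D in every low-extinction female. Anything that goes with these letters therefore cannot be told apart from the extinction level. The other 6 libraries are males of the same strain, age and 2 levels, again 3 each. Each library came from the hippocampus of a different mouse, and the sources used here do not give the behavioural score or the time between the last behavioural session and dissection. The question is which hippocampal transcripts differ between females that extinguish fear weakly and females that extinguish it strongly. Every change below is low minus high extinction: a positive log2 value means a higher level in the mice with low extinction.

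In fear extinction an animal stops responding to a threatening cue or context after repeated harmless exposure, and this is held to be new learning in which the hippocampus supplies the context. Learning is accompanied by calcium and MAP kinase signalling to the nucleus, which switches on immediate early genes: first transcription factors of the Fos, Egr and Nr4a families, then effectors such as Arc, which acts at synapses. A dissected hippocampus also holds glia, vessel walls and some meninges, and it borders the thalamus and the choroid plexus. In such bulk tissue a change in the number of cells of a type cannot be told apart from a change in RNA per cell.

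The level of a gene in a library is its TPM as deposited, an abundance that is corrected for transcript length and scaled so that libraries share the same total. Sequencing depth per library is unknown here, and the number of mice limits the precision. Between 18297 and 19062 genes reached 1 TPM in a female library, and pairs of libraries correlated at 0.977 to 0.983 on the log2(TPM + 1) scale. Ribosomal RNA-derived transcripts took from 7.10% of TPM, in replicate 3 of low extinction, to 13.9%. Markers of the hippocampus were present in all 6: Prox1, of dentate granule cells, lay between 39.0 and 46.1 TPM, and Wfs1, of CA1 pyramidal cells, between 49.5 and 74.5 TPM. Xist, from the inactive X chromosome, lay between 179.9 and 212.1 TPM, as the label of sex requires. Ttr, the defining transcript of the choroid plexus, ran from 12.6 TPM in replicate 1 of high extinction to 1166 TPM in replicate 2 of the same group, with 80.6 TPM in replicate 3 of low extinction, so the amount of choroid plexus RNA differed within both groups.

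In females with low extinction, 8 of 20 meningeal markers, 6 of 44 collagen genes, 4 of 16 smooth muscle and pericyte markers and 3 of 18 thalamus and habenula markers were called higher, and 8 of 25 activity-induced transcription factors were called lower; most members of each list were not called. The authors' deposited table of their DESeq2 comparison held an adjusted p for 15644 genes, and 134 of them (0.857%) were under 0.05. Of these, 89 were higher at low extinction (0.569%) and 45 were higher at high extinction (0.288%). The changes were small. The median fold was 1.37 among genes higher at low extinction (range 1.16 to 2.82, 78 of 89 under 2-fold) and 1.24 among genes higher at high extinction (range 1.15 to 1.78). Protein-coding genes made up 79 of the 89 and 44 of the 45.

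**Figure D1:**
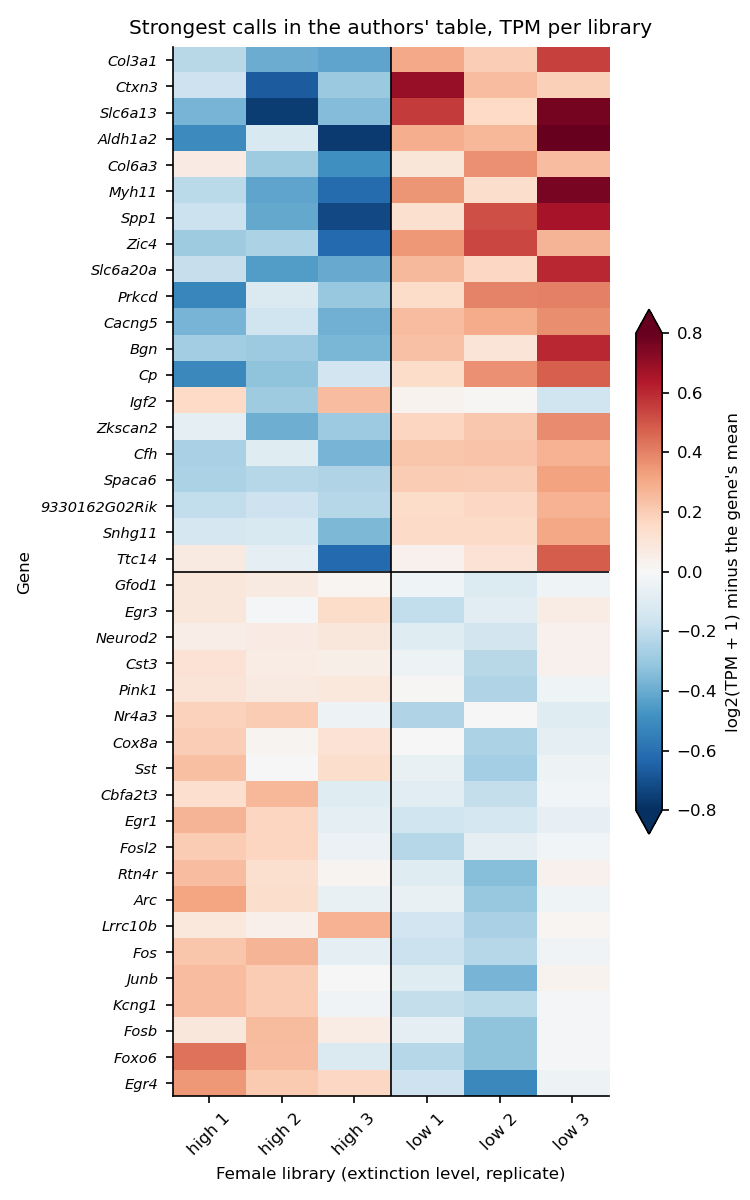
Each row is one of the 20 genes with the smallest adjusted p in each direction of the authors' deposited table, among genes averaging at least 1 TPM, and each column is a female library; colour is log2(TPM + 1) minus the gene's mean over the 6 libraries. Genes above the line are mostly red in the 3 low libraries, with the exception of Igf2, and genes below it are paler, with the deepest blue in replicate 2 of low extinction.

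The per-library TPM were read beside these calls. The deposited fold changes name no direction, and their sign was set from the TPM of these same genes, so the shared direction of 88 of the 89 and of all 45 restates that choice. Among the 89 genes, in 76 all 3 low libraries lay above all 3 high libraries, where 14.3% of the 18668 genes averaging at least 1 TPM did so. Among the 45 genes, in 25 all 3 low libraries lay below all 3 high ones, against 1.98% of genes. The unequal backgrounds come with a shift of the scale: the median change of all genes was 0.06 on the log2(TPM + 1) scale. Each library was then divided by the median ratio of its genes to their geometric means over the female libraries. After this rescaling the backgrounds were 7.1% and 7.31%, and the counts were 68 of 89 and 43 of 45. The genes were called from these same libraries, so shares above the background follow in part from that choice and are no independent support.

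The same 134 genes differed in base composition. The longest annotated transcripts of the genes higher at low extinction had a median GC content of 46.5%, those of the genes higher at high extinction 58.2%, and those of all genes with an adjusted p 49.3%. Over all genes, the median change in the authors' deposited table went from 0.04 in the lowest of 4 equal groups by GC content to −0.08 in the highest. Of the 45 genes higher at high extinction, 35 lay in the highest of these groups, and 33 of the 89 higher at low extinction lay in the lowest. When changes were centred within bins of GC content, 85 of 87 genes called higher at low extinction and tested in TPM had a positive change, and all 45 called higher at high extinction had a negative one. These genes were chosen for their change in the same libraries, so most signs would be kept in any case. The part of GC content in the calls was not tested.

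**Figure D2:**
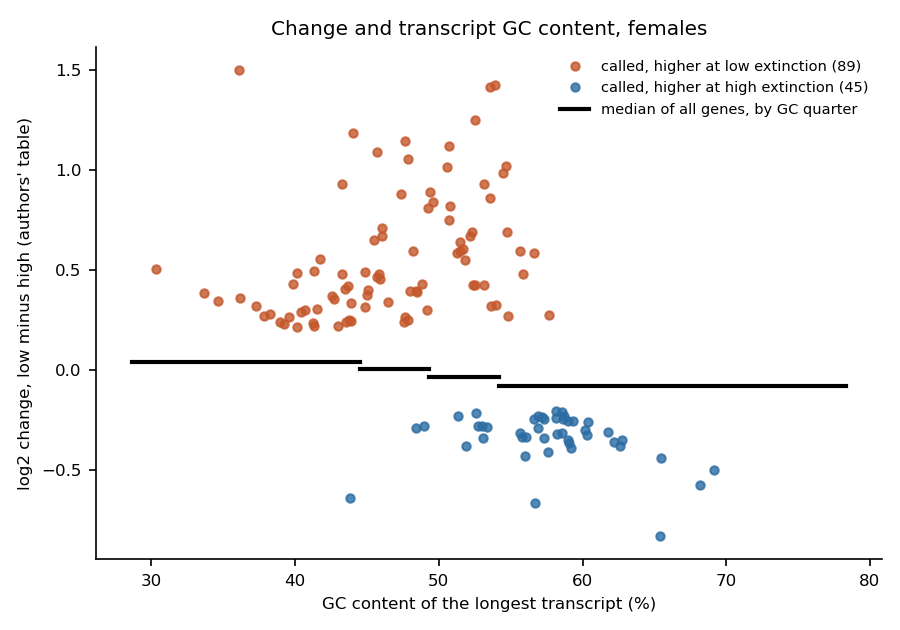
The horizontal axis is the GC content of a gene's longest annotated transcript and the vertical axis is the log2 change, low minus high, in the authors' deposited table; points are called genes and black bars are medians of all genes in 4 equal groups by GC content. The blue points (45 genes higher at high extinction, median GC content 58.2%) lie to the right of most orange points (89 genes higher at low extinction, median 46.5%), and the bars step down from 0.04 to −0.08.

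Activity-induced transcription factors held more calls than any other list among the genes lower at low extinction. Of 25 such genes, 8 were called higher at high extinction by the authors' deposited table and none higher at low extinction: Egr1, Egr3, Egr4, Fos, Fosb, Fosl2, Junb and Nr4a3. The median log2 change of the 25 genes in that table was −0.29, beside −0.01 for all genes, and 23 of the 25 were negative. Here and below, medians of lists and of all genes are over genes averaging at least 1 TPM, and counts of calls are over all members in the table. Members without an adjusted p could not be called. An adjusted p was held by 13 of 18 thalamus and habenula markers and by 39 of 44 collagen genes. On the TPM scale the median of the 25 transcription factors was −0.21, and −0.23 after centring within bins of GC content. Summed over the list, the level ran from 951.5 to 1100 TPM at high extinction and from 854.6 to 991.8 TPM at low extinction, so the groups overlapped through replicate 3 of each.

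Egr4, a zinc finger transcription factor of the Egr family (on chromosome 6 from 85511121 to 85513589, minus strand, GRCm38), had the smallest adjusted p in this direction. The Egr4 level was 42.3, 38.5 and 37.3 TPM in the 3 high-extinction libraries and 29.4, 22.8 and 32.2 TPM in the 3 low-extinction libraries. All 3 low libraries lay below all 3 high libraries, with replicate 2 of low extinction lowest. The authors' deposited table gave a log2 change of −0.58 ± 0.10 (SE; adjusted p = 2.03e-05 by DESeq2), a level 1.49-fold higher at high extinction. Fosb, a partner of Jun proteins in AP-1, was the only other of the 8 whose libraries did not overlap. The Fosb level was 13.5, 15.3 and 13.2 TPM in the 3 high-extinction libraries and 12.0, 9.91 and 12.5 TPM in the 3 low-extinction libraries, and the authors' deposited table gave −0.43 ± 0.10 (SE; adjusted p = 0.00354 by DESeq2). Fos, the founding member of that family, lay at 42.3, 43.8 and 34.3 TPM at high and 32.0, 30.7 and 35.5 TPM at low extinction. Replicate 3 of high extinction fell below replicate 3 of low extinction, and the authors' deposited table gave −0.38 ± 0.09 (SE; adjusted p = 0.0053 by DESeq2).

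The placing of the libraries was alike in other members. Junb, another AP-1 subunit, lay at 103, 100.1 and 86.9 TPM at high and 81.1, 66.9 and 88.8 TPM at low extinction, and the authors' deposited table gave −0.38 ± 0.08 (SE; adjusted p = 0.00283 by DESeq2); its gene overlaps Prdx2 on the opposite strand. Nr4a3, an orphan nuclear receptor, lay at 53.9, 54.8 and 46.1 TPM at high and 39.9, 47.2 and 44.2 TPM at low extinction, with −0.29 ± 0.06 (SE; adjusted p = 0.00167 by DESeq2) in the authors' deposited table. Egr1 lay at 128, 119 and 99.8 TPM at high and 94.4, 95.6 and 101 TPM at low extinction (authors' deposited table: −0.34 ± 0.07 (SE; adjusted p = 0.00084 by DESeq2)). In Fos, Junb and Egr1 replicates 1 and 2 of high extinction were above every low library, and replicate 3 of high extinction was within their range. Members outside the calls included Jund at −0.29, Nr4a1 at −0.21 and Npas4 at 0.07 in the authors' deposited table. Npas4, a neuron-specific factor induced by calcium entry, was one of 2 genes of the 25 with a positive change, the other being Fosl1.

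The promoters of these genes were read because the genes share a known route of induction, through CREB at cyclic AMP response elements. Of the 10 activity-induced genes called, counting the effector Arc and the feedback phosphatase Dusp6, 7 had an entry in RefSeq's promoter sequences (GRCm38.p6); Egr1, Egr3 and Arc had none. The core of the element, TGACG, was found on either strand within the 250 bases before the start in 5 of the 7, against 17.9% of 27025 promoters. The 27025 promoters were not matched for GC content, and activity-induced genes outside the calls were not compared. The TATA box TATAAA was found in 1 of 7, Fos (13.0% of all promoters). The full palindrome TGACGTCA, which contains TGACG, was in 0 of 7 (1.62%), the EGR site GCGTGGGCG in 0 of 7 (0.54%), the AP-1 site TGAGTCA in 0 of 7 (4.43%) and the CArG box of serum response factor in 0 of 7 (1.40%). The 5 promoters with the core are shown 5′ to 3′ along the gene's strand, with matches to the core on either strand, and to the TATA box, in capitals. A match describes letters in a window, not binding, and motifs farther from the start were not looked for.
Egr4: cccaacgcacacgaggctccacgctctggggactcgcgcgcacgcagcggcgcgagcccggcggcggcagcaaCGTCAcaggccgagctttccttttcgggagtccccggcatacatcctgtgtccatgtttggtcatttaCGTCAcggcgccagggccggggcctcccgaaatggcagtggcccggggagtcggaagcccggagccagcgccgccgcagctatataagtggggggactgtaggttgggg
Fosb: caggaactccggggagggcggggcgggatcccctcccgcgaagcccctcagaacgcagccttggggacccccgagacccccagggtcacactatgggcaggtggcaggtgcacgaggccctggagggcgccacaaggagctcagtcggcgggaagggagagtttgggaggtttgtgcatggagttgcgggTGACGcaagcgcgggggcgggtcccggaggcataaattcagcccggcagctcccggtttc
Fos: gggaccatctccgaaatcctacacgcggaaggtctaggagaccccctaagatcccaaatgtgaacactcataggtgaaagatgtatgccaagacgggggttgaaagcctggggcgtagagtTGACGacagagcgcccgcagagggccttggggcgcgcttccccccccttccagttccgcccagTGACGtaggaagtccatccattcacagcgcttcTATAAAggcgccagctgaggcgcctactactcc
Junb: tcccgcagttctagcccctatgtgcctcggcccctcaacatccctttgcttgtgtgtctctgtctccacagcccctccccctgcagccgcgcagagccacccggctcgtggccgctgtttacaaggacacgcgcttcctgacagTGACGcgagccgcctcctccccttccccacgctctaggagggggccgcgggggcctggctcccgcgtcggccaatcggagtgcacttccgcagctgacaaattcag
Nr4a3: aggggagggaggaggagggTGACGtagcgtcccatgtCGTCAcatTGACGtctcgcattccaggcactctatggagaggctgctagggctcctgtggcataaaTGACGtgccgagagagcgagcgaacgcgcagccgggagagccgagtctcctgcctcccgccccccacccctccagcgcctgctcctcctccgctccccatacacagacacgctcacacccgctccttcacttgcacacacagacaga
Nr4a3 held 4 matches in these 250 bases, Fos and Egr4 2 each, and Fosb and Junb 1 each; Fosl2 and Dusp6 held none.

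Effectors, feedback genes and chaperones had fewer calls, all of them higher at high extinction. Of 24 activity-induced effectors, Arc alone was called, at 201, 178 and 155 TPM at high and 155, 131 and 158 TPM at low extinction and with −0.35 ± 0.08 (SE; adjusted p = 0.00387 by DESeq2) in the authors' deposited table; replicate 3 of high extinction was at the level of the low libraries. Homer1, a scaffold of the postsynaptic density, had −0.22 in that table and was not called. The median over 23 of the 24 was −0.10. Of 13 MAP kinase feedback genes 1 was called, Dusp6, a phosphatase of ERK, with −0.28 ± 0.07 (SE; adjusted p = 0.0194 by DESeq2) in the authors' deposited table. Of 30 heat shock and unfolded protein response genes 3 were called and all were higher at high extinction. They were the co-chaperone Dnajb1, the transcription factor Xbp1, which drives the unfolded protein response, and Sdf2l1, of the endoplasmic reticulum. The median log2 change of the 30 genes in the authors' deposited table was −0.12, beside −0.01 for all genes, with 28 negative and 2 positive. After TPM changes were centred within bins of GC content, 26 were negative and 4 positive. Sdf2l1 lay at 13.5, 12.7 and 21.5 TPM at high and 11.1, 10.1 and 11.1 TPM at low extinction, where replicate 3 of high extinction stood above the rest, and the authors' deposited table gave −0.67 ± 0.19 (SE; adjusted p = 0.0452 by DESeq2).

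Other genes called higher at high extinction included Sst, Kcng1, Cox8a, Rtn4r, Rtn4rl1 and Dmrta2. Sst, the neuropeptide somatostatin of a class of GABAergic interneurons, lay at 444, 375 and 415 TPM at high and 361, 312 and 366 TPM at low extinction. Its libraries did not overlap, and the authors' deposited table gave −0.34 ± 0.08 (SE; adjusted p = 0.00334 by DESeq2). It was the only one called of 25 interneuron and neuropeptide genes. Cck (−0.28) and Npy (−0.34) in the authors' deposited table were not called. The median of the 25 genes there was −0.13, with 22 negative and 3 positive. After TPM changes were centred within bins of GC content, 18 were negative and 7 positive. Kcng1, a modifier subunit of voltage-gated potassium channels, lay at 27.0, 26.2 and 22.1 TPM at high and 19.6, 19.4 and 22.4 TPM at low extinction and overlapped in replicate 3 of each group. Cox8a, a nuclear-encoded subunit of cytochrome c oxidase, lay at 613, 541 and 579 TPM at high and 532, 447 and 506 TPM at low extinction with no overlap, and was the only one called of 76 nuclear respiratory chain genes. The receptor Rtn4r and its relative Rtn4rl1, which bind inhibitors of axon growth, were both called, with log2 changes of −0.35 and −0.23 in the authors' deposited table. The largest fold in this direction was that of Dmrta2, a transcription factor of cortical progenitors, at 2.31, 2.16 and 1.97 TPM at high and 1.13, 1.14 and 1.44 TPM at low extinction (authors' deposited table: −0.83 ± 0.23 (SE; adjusted p = 0.035 by DESeq2)).

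**Figure D3:**
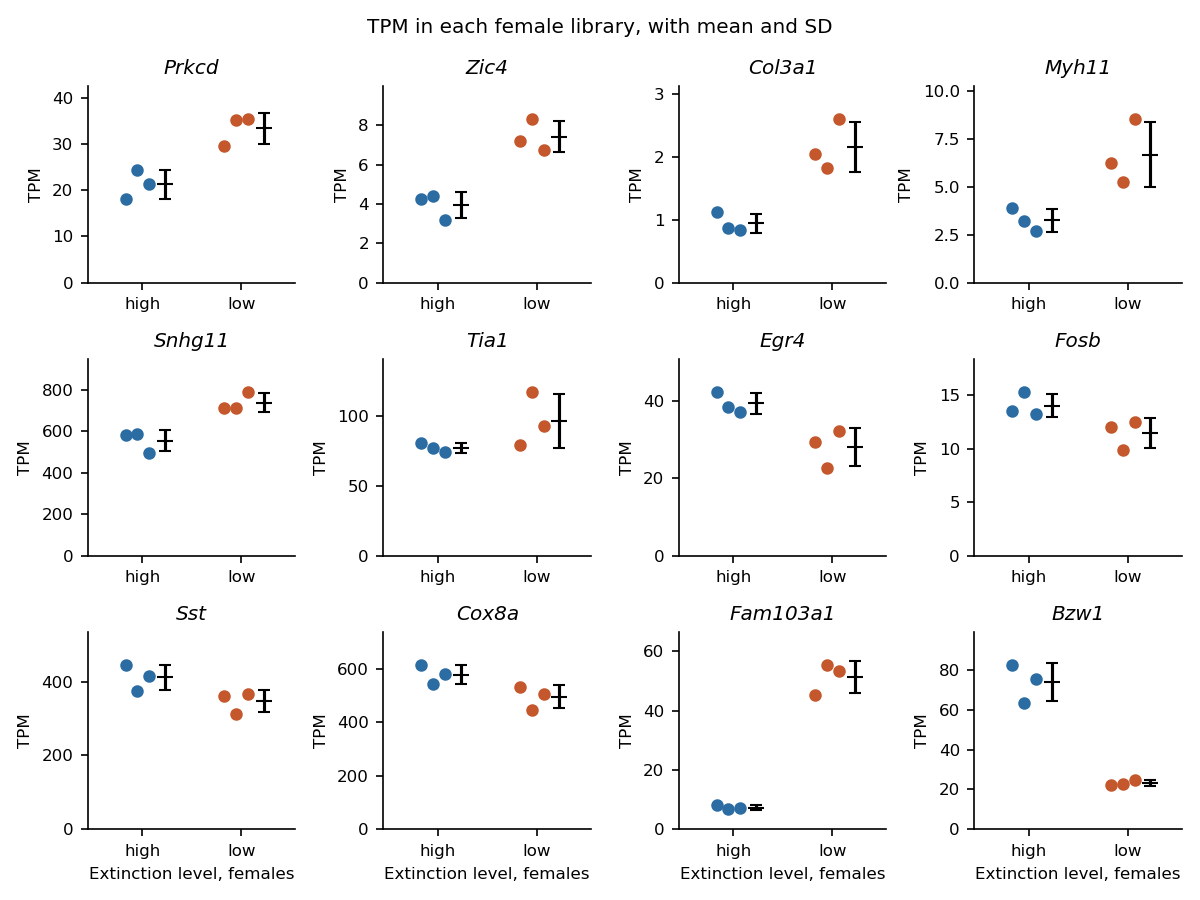
Points are the TPM of each female library, blue for high and orange for low extinction, and the black mark with its bar is the mean and SD of 3 libraries; each panel has its own axis from 0. Prkcd, Zic4, Col3a1, Myh11 and Snhg11 are higher in every low library than in any high one, Egr4, Fosb, Sst and Cox8a are lower in every low library, Tia1 overlaps, and Fam103a1 and Bzw1 take 2 widely separated levels.

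Genes of the meninges, collagens and vessel walls made up the largest named groups among the genes higher at low extinction. Of 20 meningeal fibroblast markers, 8 were called higher at low extinction by the authors' deposited table and none lower: Aldh1a2, Col1a2, Col3a1, Col6a3, Igf2, Slc13a4, Slc22a6 and Slc6a13. The median log2 change over the 18 members averaging 1 TPM or more was 0.51 in that table and 0.48 on the TPM scale. Of 44 collagen genes 6 were called and all were higher at low extinction (Col11a1, Col1a2, Col3a1, Col4a1, Col4a5 and Col6a3), with a median of 0.24 over 30 members in that table; 3 of these calls belong to both lists. Of 16 smooth muscle and pericyte markers 4 were called, Acta2, Myh11, Myl9 and Mylk, with a median of 0.25 over 15 members.

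Col3a1, the chain of type III collagen in soft connective tissue (on chromosome 1 from 45311538 to 45349706, plus strand, GRCm38), lay at 1.12, 0.874 and 0.843 TPM at high and 2.05, 1.83 and 2.61 TPM at low extinction. Each low library was above each high library, at a level near 1 TPM, and the authors' deposited table gave 1.25 ± 0.20 (SE; adjusted p = 2.05e-06 by DESeq2), or 2.38-fold. Slc6a13, a GABA and taurine transporter of the meninges, lay at 5.45, 3.93 and 5.57 TPM at high and 11.3, 8.32 and 13.2 TPM at low extinction, and the authors' deposited table gave 1.02 ± 0.18 (SE; adjusted p = 2.8e-05 by DESeq2). Aldh1a2, which makes retinoic acid in meningeal cells, lay at 3.80, 5.25 and 3.01 TPM at high and 7.33, 7.18 and 11.3 TPM at low extinction with 1.01 ± 0.20 (SE; adjusted p = 0.000188 by DESeq2), again in the authors' deposited table. In Aldh1a2 and Slc6a13 replicate 3 of low extinction was the highest library, and neither gene's groups overlapped.

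Igf2, a growth factor made by meninges and choroid plexus, is the exception in the list. The authors' deposited table called it higher at low extinction (0.48 ± 0.09 (SE; adjusted p = 3.77e-05 by DESeq2)), while its TPM overlapped at 26.4, 19.2 and 28.2 TPM at high and 24.0, 23.8 and 20.99 TPM at low extinction and the TPM change was −0.08. Members outside the calls were led by Dcn, a proteoglycan of fibroblasts and the second most abundant of the list, at 44.8, 48.7 and 39.4 TPM at high and 46.5, 53.6 and 55.1 TPM at low extinction. Its groups overlapped, and its change in the authors' deposited table was 0.13. Nov, the most abundant, had a change of −0.16. Apart from this list, the connective tissue genes Omd, Bgn, Mgp, Spp1 and Serping1 were called, with log2 changes of 1.497, 0.58, 0.81, 0.93 and 0.69 in the authors' deposited table.

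Myh11, the heavy chain of smooth muscle myosin (on chromosome 16 from 14194535 to 14291372, minus strand, GRCm38), lay at 3.87, 3.21 and 2.67 TPM at high and 6.21, 5.22 and 8.53 TPM at low extinction. No low library overlapped the high ones, and the authors' deposited table gave 0.93 ± 0.15 (SE; adjusted p = 1.63e-06 by DESeq2). Acta2, smooth muscle actin, lay at 12.7, 9.90 and 8.04 TPM at high and 17.7, 15.6 and 25.5 TPM at low extinction, with 0.84 ± 0.17 (SE; adjusted p = 0.000326 by DESeq2) in the authors' deposited table. The contractile genes Myl9 and Mylk were called at 0.58 and 0.32. Pericyte genes of the list were not called: Pdgfrb had 0.19, Rgs5 0.11 and Kcnj8 −0.34 in the authors' deposited table. None of 16 endothelial markers was called (median 0.03). Flna, the actin cross-linker filamin A, Col4a1 of basement membranes and the intermediate filament gene Vim were called higher at low extinction, at 0.32, 0.27 and 0.34.

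The summed levels show how these marker lists varied by mouse. Meningeal markers summed to between 239.8 and 248.6 TPM at high extinction and between 275.7 and 327.1 TPM at low extinction. Collagens summed to between 193.2 and 225.8 TPM and between 243.4 and 270.9 TPM, and smooth muscle and pericyte markers to between 171.0 and 206.5 TPM and between 232.5 and 273.1 TPM. In each of the 3 lists the groups did not overlap, and replicate 3 of low extinction was highest. No member of the meningeal list was at 0, the lowest mean being Foxd1 at 0.68 TPM. Without replicate 1 of high extinction or without replicate 3 of low extinction, the libraries with little Ttr, the median TPM change of the meningeal list was 0.51 or 0.40, that of the smooth muscle list 0.35 or 0.29, and that of the activity-induced transcription factors −0.15 or −0.22. Whether more meninges or vessel in the dissected tissue has a part in these calls was not tested.

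Prkcd, a protein kinase C isoform abundant in thalamic relay neurons, had one of the 2 smallest adjusted p-values of the comparison. The Prkcd level was 18.2, 24.4 and 21.3 TPM in the 3 high-extinction libraries and 29.5, 35.3 and 35.4 TPM in the 3 low-extinction libraries. Its gene lies on chromosome 14 from 30595354 to 30626210, minus strand (GRCm38). All 3 low libraries were above all 3 high ones, and the authors' deposited table gave 0.67 ± 0.10 (SE; adjusted p = 3.16e-08 by DESeq2), or 1.59-fold. Of 18 markers of thalamus and habenula 3 were called higher at low extinction and none lower, the others being the zinc finger factors Zic1 and Zic4. Zic4 lay at 4.27, 4.40 and 3.18 TPM at high and 7.19, 8.32 and 6.76 TPM at low extinction with 0.88 ± 0.15 (SE; adjusted p = 1.22e-05 by DESeq2), and Zic1 at 8.20, 10.0 and 7.03 TPM at high and 13.8, 17.1 and 18.1 TPM at low extinction with 1.09 ± 0.26 (SE; adjusted p = 0.00914 by DESeq2), from the authors' deposited table. These 2 genes overlap on opposite strands, and strand use in counting is a detail not given in the sources used here, so their reads cannot be told apart where they overlap.

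The median of 15 markers in the authors' deposited table was 0.30, with 13 of 15 positive. On the TPM scale, where 12892 of 18668 genes were positive, all 15 were, with a median of 0.29, and after centring within bins of GC content 14 of 15 were, with a median of 0.21. Calb2, also an interneuron marker, lay at 36.9, 40.7 and 27.3 TPM at high and 46.9, 42.7 and 55.8 TPM at low extinction. Its groups did not overlap, but it was not called (0.39, adjusted p = 0.0818 by DESeq2 in the authors' deposited table). Tcf7l2, a defining factor of thalamic neurons, had 0.55 and was not called; without replicate 1 of low extinction its TPM change was −0.037. In the authors' deposited table Slc17a6, the glutamate transporter of thalamic relay neurons, had 0.30. The list summed to between 147.4 and 175.9 TPM at high and between 211.0 and 224.2 TPM at low extinction, with no overlap. Its defining members Gbx2 and Pou4f1 were near 0, with means of 0.10 and 0.20 TPM. The part of thalamic tissue at the edge of the dissection in these calls was not tested.

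Markers of the hippocampus itself had a single call. None of 8 dentate granule cell markers was called (median −0.03), and of 12 CA field markers 1 was, Cacng5, a regulatory subunit of AMPA receptors. Cacng5 lay at 5.84, 6.95 and 5.80 TPM at high and 9.54, 9.90 and 10.5 TPM at low extinction, without overlap, and the authors' deposited table gave 0.60 ± 0.11 (SE; adjusted p = 3.41e-05 by DESeq2). Eomes, a factor of intermediate progenitors, was the only one called of 14 neurogenesis and proliferation genes, at 0.539, 0.561 and 0.249 TPM at high and 1.08, 1.297 and 2.15 TPM at low extinction and so near the lower limit of what TPM resolves.

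Markers of further cell types were compared in the same way. Choroid plexus markers had no call among 15 (median −0.20) and summed to between 29.2 and 1311 TPM at high extinction and between 114.6 and 1129 TPM at low extinction, so both groups held libraries with little and with much choroid plexus RNA. Ependymal and motile cilia markers had no call among 15 (median 0.21). Blood cell markers had no call among 8 (median −0.36), with sums of 384.2 to 638.1 TPM and 311.4 to 597.5 TPM. No gene was called among 15 astrocyte markers (−0.03) or 17 microglia markers (−0.10), and of 15 oligodendrocyte markers 1 was, Sox10, a factor of the oligodendrocyte lineage, with −0.31 ± 0.08 (SE; adjusted p = 0.026 by DESeq2) in the authors' deposited table.

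**Figure D4:**
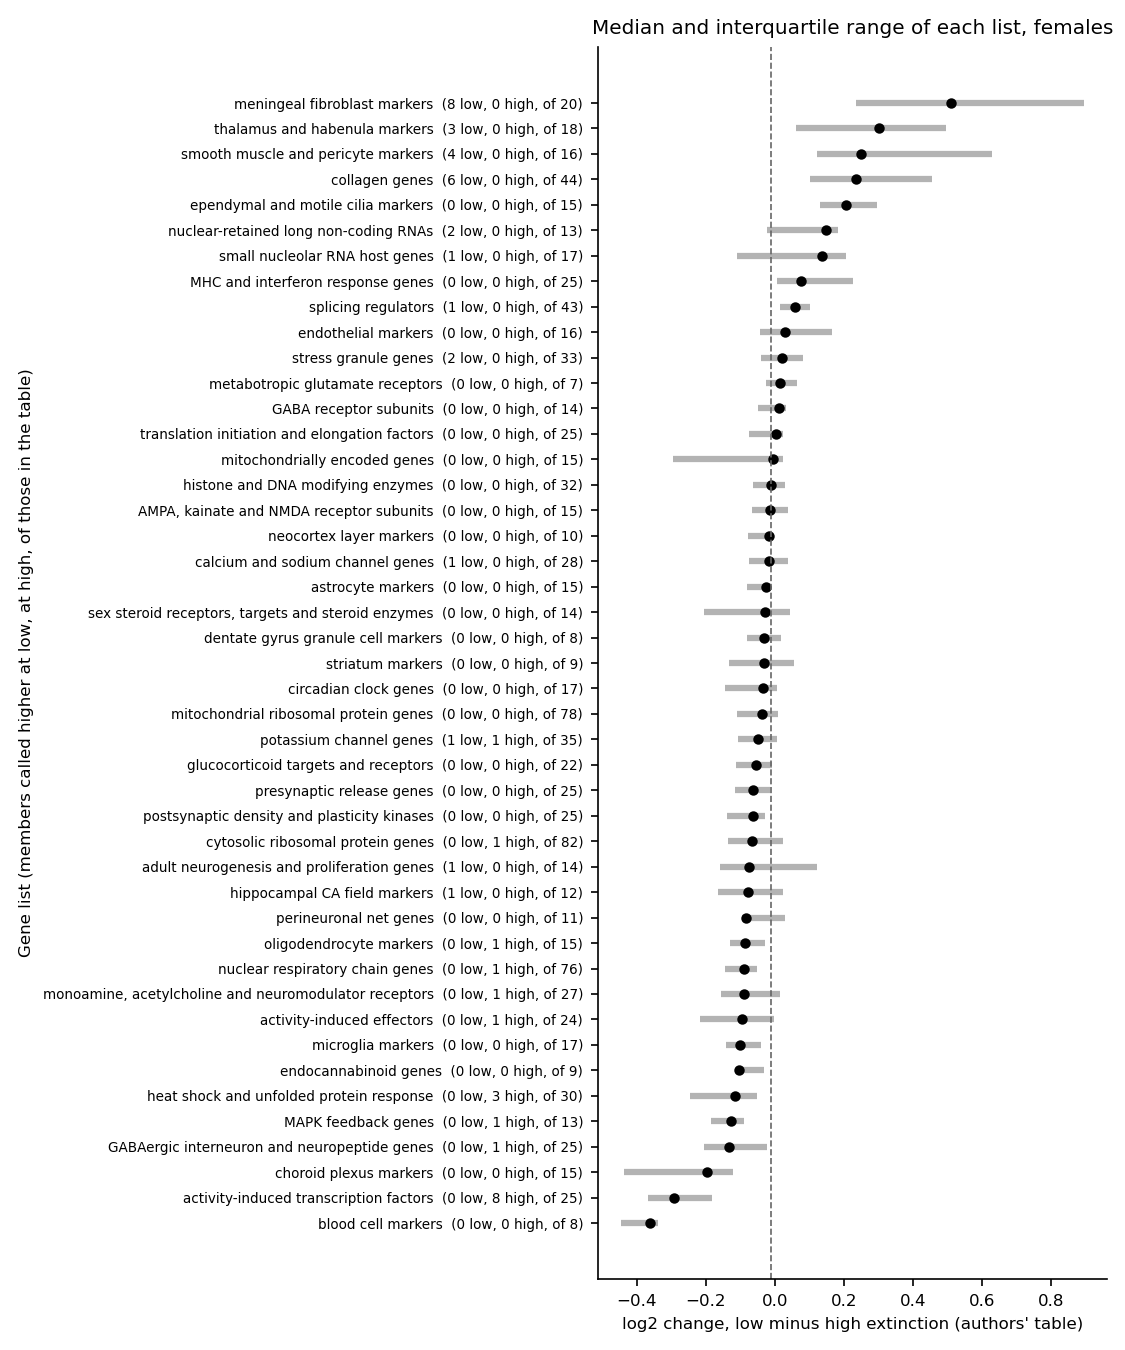
Each row is a list of genes; the dot is the median log2 change, low minus high, over its members in the authors' deposited table, the grey bar is the interquartile range over members, and the dashed line is the median of all genes (−0.01); medians are over members averaging at least 1 TPM. Meningeal fibroblast markers lie farthest right with a median of 0.51 and 8 of 20 members called, activity-induced transcription factors lie at −0.29 with 8 of 25 called, and most neuronal lists lie close to the line.

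Tia1, which the title of the study names, encodes an RNA-binding protein that nucleates stress granules and regulates splicing and translation (on chromosome 6 from 86404219 to 86433405, plus strand, GRCm38). The Tia1 level was 80.3, 76.8 and 73.8 TPM in the 3 high-extinction libraries and 78.8, 117 and 92.8 TPM in the 3 low-extinction libraries. The groups overlapped: replicate 1 of low extinction lay within the range of the high libraries, and replicates 2 and 3 lay above it. The mean log2(TPM + 1) was 0.30 higher at low extinction, with p = 0.2 in a two-sided exact permutation test, where 3 against 3 cannot go below 0.1. The authors' deposited table called it, with 0.23 ± 0.06 (SE; adjusted p = 0.0363 by DESeq2), a 1.18-fold higher level. Leaving out 1 library at a time moved the TPM change between 0.15 and 0.43, and after centring within bins of GC content the Tia1 change was 0.18.

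Its paralog Tial1, with a like role, was also called, and here the libraries did not overlap: 64.2, 56.2 and 60.0 TPM at high and 75.9, 82.2 and 73.2 TPM at low extinction, with 0.22 ± 0.06 (SE; adjusted p = 0.0422 by DESeq2) in the authors' deposited table. These 2 were the only ones called of 33 stress granule genes, whose median was 0.02. Of 43 splicing regulators only Srsf5 was called, and its TPM overlapped. Other RNA-processing genes among the 89 were Rbm5, Arglu1 and Pnisr, with log2 changes of 0.22, 0.23 and 0.24 in the authors' deposited table. Rbm5 and Arglu1 overlapped in TPM, and Pnisr did not; after centring within bins of GC content the TPM change of Arglu1 was −0.0036.

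Among long non-coding RNAs, Snhg11, a nuclear RNA of neurons that hosts small nucleolar RNAs, was called and separated by library. It lay at 579.8, 584 and 496 TPM at high and 709.8, 709 and 788 TPM at low extinction, and the authors' deposited table gave 0.31 ± 0.06 (SE; adjusted p = 8.21e-05 by DESeq2). Meg3, an imprinted RNA kept in the nucleus, was called as well (0.30 ± 0.06 (SE; adjusted p = 0.000997 by DESeq2), authors' deposited table), though its TPM overlapped between the groups. These were 2 of 13 nuclear-retained long non-coding RNAs, and Malat1 (0.22) was not called. The antisense RNA 9330162G02Rik, which lies within Ube3a on the opposite strand, shared the smallest adjusted p with Prkcd. Its libraries lay at 11.8, 12.1 and 11.5 TPM at high and 15.2, 15.5 and 16.8 TPM at low extinction, and the authors' deposited table gave 0.34 ± 0.05 (SE; adjusted p = 3.16e-08 by DESeq2). With strand use in counting not given, its reads cannot be told apart from those of Ube3a where the genes overlap. Zkscan2, a zinc finger gene, followed at 13.3, 10.6 and 11.4 TPM at high and 16.1, 16.6 and 18.7 TPM at low extinction and 0.46 ± 0.07 (SE; adjusted p = 1.52e-07 by DESeq2).

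Synaptic genes had few calls. None was called among 15 AMPA, kainate and NMDA receptor subunits (median −0.02), 7 metabotropic glutamate receptors, 14 GABA receptor subunits (each 0.01), 9 endocannabinoid genes (−0.10), 25 presynaptic release genes (−0.06) or 25 postsynaptic density genes and plasticity kinases (−0.06). Of 35 potassium channel genes, Kcnt1 was called higher at low extinction and Kcng1 lower. Nor was any called among 22 glucocorticoid targets and receptors, 17 circadian clock genes, 14 sex steroid genes or 32 histone and DNA modifying enzymes. Of 82 cytosolic ribosomal protein genes Rplp1 alone was called, lower at low extinction. These are counts at this number of mice; a gene that was not called is not shown to be equal.

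The limma test on TPM called 2 of 18668 genes (0.0107%), and neither was called in the authors' deposited table. Fam103a1, a cofactor of mRNA cap methylation (on chromosome 7 from 81762925 to 81769491, plus strand, GRCm38), lay at 8.13, 6.63 and 7.08 TPM at high and 45.3, 55.3 and 53.4 TPM at low extinction. Its log2(TPM + 1) change was 2.66 ± 0.11 (SE, limma adjusted p = 0.00103), against −0.01 ± 0.10 (SE; adjusted p = 0.986 by DESeq2) in the authors' deposited table. Bzw1, a regulator of translation start (on chromosome 1 from 58392898 to 58407353, plus strand, GRCm38), lay at 82.6, 63.6 and 75.6 TPM at high and 22.02, 22.5 and 24.7 TPM at low extinction. Its change was −1.63 ± 0.10 (SE, limma adjusted p = 0.0126), against 0.04 ± 0.06 (SE; adjusted p = 0.907 by DESeq2) in the authors' deposited table.

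Both genes took 2 levels across the study. In males Fam103a1 lay at 6.08, 48.4 and 50.9 TPM at high extinction and at 7.24, 49.1 and 6.64 TPM at low extinction, so each level occurred in both male groups. Bzw1 did the same in males, with 80.8 TPM in 1 high library, 71.2 TPM in 1 low library and between 17.6 and 20.4 TPM in the other 4. The next smallest limma p-values belonged to Ncoa7 and Mrpl33, with the same gap between the TPM and the authors' deposited table: Ncoa7 lay at 41.3, 39.2 and 41.2 TPM at high and 62.4, 66.5 and 67.0 TPM at low extinction, and that table gave a log2 change of 0.04. Slc17a7, the vesicular glutamate transporter of hippocampal pyramidal cells, lay at 906, 872 and 941 TPM at high and 537, 711 and 601 TPM at low extinction, with no overlap and a TPM change of −0.56 (limma adjusted p = 0.384). It had −0.17 ± 0.07 (SE; adjusted p = 0.356 by DESeq2) in the authors' deposited table. The assignment of reads for TPM and for counts is likewise a detail not given in the sources used here, and the source of the gap was not tested.

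At an unadjusted p under 0.05 limma listed 1648 of the 18668 genes. Among the genes called in the authors' deposited table these were 72 of 87 tested that were higher at low extinction and 22 of 45 that were higher at high extinction. Both tests use the same 6 libraries, so one is not independent of the other.

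The female changes were then set beside those of males. The authors' deposited table for males called 101 of 20050 genes (0.504%). Of the 89 genes higher at low extinction in females, 39 had the same sign in males and 50 the opposite; 7 were also called there in the same direction and 4 in the opposite one, Cdh1, Col3a1, Vim and Sned1. Of the 45 genes higher at high extinction, 31 had the same sign in males, and Junb and Dnajb1 were called in both. Tia1 was among the 7, at 0.23 in females and 0.28 in males in the authors' deposited tables.

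**Figure D5:**
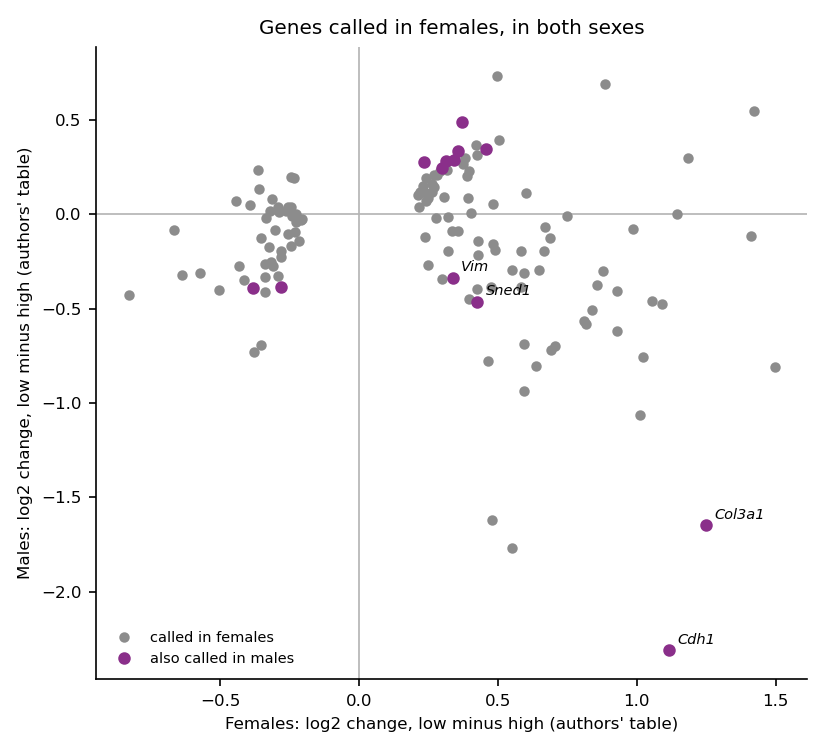
Each point is one of the 134 genes called in females, placed by the log2 change, low minus high, in the authors' deposited table for females (horizontal) and for males (vertical); purple points were called in both. Points at the right spread below the horizontal zero line, where 50 of 89 genes lie, and Col3a1, Cdh1, Vim and Sned1 are called in opposite directions.

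By group, the meningeal list that had a median of 0.51 in females had −0.60 in males, thalamus and habenula markers 0.30 and −0.19, and activity-induced transcription factors −0.29 and −0.27. In the same male comparison choroid plexus markers had a median of −2.26 with no call among 15, against −0.20 in females, and ependymal and motile cilia markers had −0.93 with 6 of 15 called higher at high extinction, against 0.21 in females. Ttr held no adjusted p in the authors' deposited table for males, so it could not be called there. Male Ttr lay at 2874, 3300 and 299 TPM at high and 906, 41.3 and 49.6 TPM at low extinction, and the meningeal list summed to between 272 and 312 TPM at high and between 165 and 236 TPM at low extinction. The part of these markers in the difference between the sexes was not tested. The difference between the sexes was tested for each gene as the female change minus the male change over all 12 libraries. It was called for 1 of 18046 genes (0.00554%) by limma, with 1430 at an unadjusted p under 0.05. That gene was Zfp605, a zinc finger gene. In females it lay at 4.76, 4.65 and 4.16 TPM at high and 5.86, 6.19 and 5.87 TPM at low extinction, and in males at 9.15, 8.95 and 9.78 TPM at high and 4.42, 4.61 and 4.80 TPM at low extinction. The low libraries lay above the high ones in females and below them in males, and the difference was 1.21 on the log2 scale (limma adjusted p = 0.00726), though Zfp605 was called in neither of the authors' deposited tables.

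Of the genes called higher at low extinction in females, 47 of 82 that could be tested had an unadjusted interaction p under 0.05, and the smallest adjusted p among them was 0.217. Serping1, an inhibitor of complement, was one of these. In females it lay at 6.63, 6.04 and 5.84 TPM at high and 12.2, 10.0 and 11.8 TPM at low extinction, and in males at 9.62, 6.93 and 5.74 TPM at high and 4.66, 3.76 and 4.85 TPM at low extinction. The female libraries separated upward and the male libraries downward, with a difference of 1.40. Of the genes higher at high extinction 1 of 45 had such an unadjusted p, and over all genes tested 1430 of 18046 did. Both sets were called on the female change, which is itself part of the difference tested. That choice favours small p-values, so these counts are no independent evidence of a difference between the sexes. For Egr4 the difference was −0.16, for Junb 0.10 and for Fos 0.27 on the log2(TPM + 1) scale, with limma adjusted p-values of 0.891, 0.905 and 0.876.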

How the data were processed

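Libraries of polyadenylated RNA were prepared from the hippocampi of 12 mice with an mRNA kit, as the labels state. Per the submitters' processing notes, the authors used DESeq2, StringTie 1.3.3b, HTSeq, TopHat2 and Bowtie2; which of them made which file is left unsaid. The authors deposited, for each sex apart, TPM per library. Their DESeq2 table holds, per the file headers, the mean normalized count (a signal), the log2 fold change with its error, the test statistic (a score), and p-values before and after adjustment. Neither table keeps depth per library, and no count model was run here. The deposited fold changes name no direction; 133 of 134 called female genes ran against their TPM change in sign, so the fold changes were multiplied by −1.

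Tests used log2(TPM + 1), a scale that shrinks changes of genes with low values, and limma 3.58.1 (trend, Benjamini-Hochberg at 0.05) in R 4.3.3, for genes averaging at least 1 TPM. The female minus male change was fitted over all 12 libraries, and Tia1 was tested by exact permutation. Replicate numbers follow record order and pair no mice. The limma p-values set a group difference against the spread between these mice, which is estimated with the help of other genes. This fit was first tested on simulated data with the spread of the female libraries. It called 14 of 50 genes changed by 0.5 on the log2 scale, 33 of 50 changed by 1 and 49 of 50 changed by 2. There were 10 false calls, so most changes of the size described here would be missed. GC content is that of the longest GENCODE M21 transcript (52489 of 52636 identifiers found).

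The lists and members were chosen with earlier results of these data known, so no list is given a test. Named genes are Tia1, limma calls, the 20 smallest adjusted p per direction in the authors' table, called members of 45 lists with the 3 most abundant members of lists described, and 5 per direction for the female minus male change. Other genes named (such as Omd, Mgp, Flna, Vim, Sned1, Cdh1, Rbm5, Arglu1, Pnisr, Rtn4rl1, Dmrta2, Ncoa7, and members of lists that were not called) were picked after their values were seen. Alternatives were leaving out each library, a stricter threshold, a joint fit and changes of pseudocount, filter, scaling and variance model; centring by GC content, and rescaling for counts of non-overlapping genes, were added after seeing the data. Analyses used Python 3.11.15 with scipy 1.17.1 and matplotlib 3.10.9.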

Additional observations from a re-analysis of the deposited data

Results flagged for a closer look

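For 14 of the genes called or named here the change from high to low extinction went one way in every female library and the other way in every male library, or the difference between the sexes passed the test. These genes had been named for their female change or for the difference between the sexes itself. The share of all genes whose libraries separate in opposite directions is not given here, so the count is no measure of how common this is. Differences are female minus male, on the log2(TPM + 1) scale. Zfp605 passed the limma test of the difference, at 1.21.

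The other 13 were listed because the 3 low libraries lay wholly above or below the 3 high libraries in females and on the opposite side in males; their differences did not pass that test, or were not tested in the case of Col3a1, which fell under the 1 TPM minimum in males. Genes of connective tissue and the meninges among them were Col3a1 at 1.51, Slc6a13 at 1.56, Slc6a20a at 1.33, Bgn at 0.98, Slc13a4 at 2.22, Col1a2 at 1.44, Col9a2 at 1.22 and Serping1 at 1.40. Mylk, the smooth muscle kinase, differed by 0.54, Arhgap29 by 0.92 and Plscr2 by 1.06. Yipf2 and Gm20499 went the other way, lower at low extinction in females and higher in males, at −0.74 and −0.86.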

How the results depend on the processing

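The number of genes called by limma in females, 2, depends on the setting: 1 without a filter on low values, 4 at a mean of at least 5 TPM, 4 with robust empirical Bayes, 0 in the joint fit on 12 libraries and 4 to 10 when 1 library is left out; the cause was not tested. Calls for the female minus male change, 1, ranged from 1 to 4 when a library was left out. The authors' deposited table held 65 calls at an adjusted p under 0.01 against 134. Genes with every low library above every high one numbered 2669 as deposited, 1326 after rescaling by medians and 1328 after centring by GC content. Genes with every high library above every low one numbered 369, 1365, 851 without ribosomal RNA-derived and mitochondrial genes, and 1273 after centring by GC content. Over these alternatives, GC centring included, TPM changes of named genes (those picked after their values were seen included) kept direction and side of the limma threshold in 1588 cases, lost the call in 5 (Fam103a1 and Bzw1), gained one in 5 (Mrpl33 and Ncoa7) and reversed in 5. Arglu1 reversed after centring by GC content, at −0.0036. When 1 library was left out, Igf2 ranged from −0.24 to 0.021 and Srsf5 from −0.0040 to 0.41, both crossing 0 without replicate 3 of high extinction. Homer1 ranged from −0.12 to 0.0074 and Tcf7l2 from −0.037 to 0.66, both crossing 0 without replicate 1 of low extinction. List medians moved by more than the spread between replicates in 57 cases and by less in 662. Leaving out a library could not be run on the authors' deposited table. No paired analysis was possible because the replicate numbers follow record order and pair no mice.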
